A study of Mus musculus with 6 samples.

Results

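Hepcidin, transferrin with its receptors, ferritin, the iron exporter ferroportin and regulators of hepcidin were followed in liver RNA of Cyp2e1 knockout mice. The set holds 10 genes, taken by symbol from a table of 15960: Hamp, Hamp2, Tfrc, Tfr2, Trf, Fth1, Ftl1, Slc40a1, Hfe and Bmp6. All 10 were in the table. They also passed the filter on low values, which kept the 9968 genes that reached 1 FPKM in 3 or more of the 6 libraries. FPKM correct fragment numbers for the length of the transcript and the depth of the library, so levels can be compared between genes. There were 3 libraries of Cyp2e1-/- liver and 3 of Cyp2e1+/+ liver. Both groups were C57BL/6, 22 weeks old, and had eaten a high-fat diet for 14 weeks. Without a group on standard diet, the effect of the diet itself cannot be told apart from what the genotypes share. The labels give neither the sex of the mice nor how the Cyp2e1 allele was made. The libraries are of whole liver, in which fewer cells of a type and less RNA per cell cannot be told apart.

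The liver stores iron and sets how much of it enters the blood. Hepatocytes secrete hepcidin, encoded by Hamp, which binds ferroportin on gut cells and macrophages and sends it for degradation, so that less iron leaves those cells. Hamp is switched on by bone morphogenetic proteins that sinusoidal endothelial cells release, acting through SMAD proteins, and by interleukin-6 acting through STAT3. Inside the cell, iron regulatory proteins bind a hairpin called the iron responsive element, which blocks translation when it lies in the 5′ UTR of a transcript and protects the RNA from decay when it lies in the 3′ UTR. CYP2E1 is itself a heme-iron enzyme of hepatocytes.

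Mice have 2 hepcidin genes side by side, and the sequences before their start sites are shown because Hamp2 was the one gene of the set whose groups did not overlap, while those of Hamp did. Hamp lies at chr7:30942368-30944029 and Hamp2 at chr7:30922372-30924181, both on the minus strand (GRCm38.p6), with 18186 bases between them. The lines below give the 250 bases before each RefSeq start, 5′ to 3′, from chr7:30944030-30944279 for Hamp and chr7:30924182-30924431 for Hamp2. The capitals mark, from left to right, the core of the BMP responsive element, GGCGCC. After it comes the STAT element, searched in its general form TTCNNNGAA. The last is a match to the letters ATAAAA near the start, where a core promoter motif can lie.
Hamp: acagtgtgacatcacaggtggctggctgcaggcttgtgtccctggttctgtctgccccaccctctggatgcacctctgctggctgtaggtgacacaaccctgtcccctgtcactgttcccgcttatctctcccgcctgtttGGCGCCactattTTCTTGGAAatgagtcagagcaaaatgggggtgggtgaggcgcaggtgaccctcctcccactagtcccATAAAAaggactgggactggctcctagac
Hamp2: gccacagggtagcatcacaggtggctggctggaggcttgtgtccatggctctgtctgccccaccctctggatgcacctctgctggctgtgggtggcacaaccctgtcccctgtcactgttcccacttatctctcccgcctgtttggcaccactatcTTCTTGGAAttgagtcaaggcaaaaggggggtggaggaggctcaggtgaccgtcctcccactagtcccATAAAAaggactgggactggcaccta

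The windows aligned over 247 positions with 20 substitutions and no internal gap, an identity of 91.9%. One substitution, G145A (counted from 1 at the 5′ end of the Hamp line, Hamp base first), falls inside GGCGCC, which is found in the Hamp window and not in that of Hamp2. The STAT element TTCTTGGAA was present in both, 97 bases before the Hamp start and 94 before that of Hamp2, and ATAAAA was present in both as well. Searched on both strands, GGCGCC occurred in 9.536% of 27025 promoter windows of this length, TTCNNNGAA in 7.179%, and both in 0.396%. ATAAAA occurred in 17.624% on either strand. Promoter windows were found for 8 of the 10 genes, and besides Hamp only Tfrc held GGCGCC. A match of letters is a description and does not show that a factor binds.

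**Figure D1:**
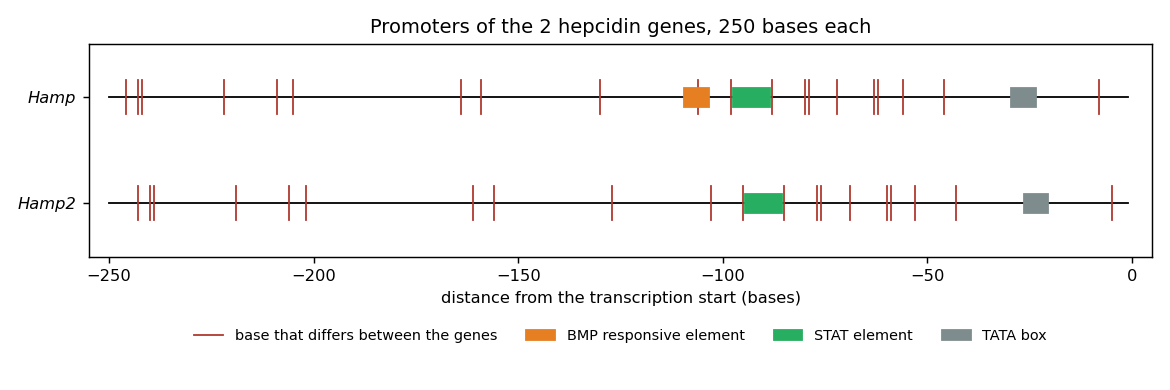
Positions of the motif matches (coloured boxes) and of the 20 bases that differ (red ticks) in the 250 bases before the Hamp and Hamp2 start sites, with the distance from the start in bases on the horizontal axis. The BMP responsive element core appears in Hamp and not in Hamp2, while the STAT element and the ATAAAA match appear in both.

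Iron responsive elements were searched in the UTRs of all 10 genes, because they mark which of these transcripts iron can act on directly. The search looked for an unpaired C, a stem of 5 base pairs (G-T pairs allowed) and a loop of CAGTG with a last base other than G. It found 7 hairpins in 4 of the genes. Each is given as 30 bases of GENCODE M21 transcript sequence (GRCm38), with the 6 loop bases in capitals. Fth1 (chr19:9982732-9982761, plus strand), Ftl1 (chr7:45459778-45459807, minus strand) and Slc40a1 (chr1:45925464-45925493, minus strand) carried 1 each in the 5′ UTR, and Tfrc carried 4 in the 3′ UTR between 32631219 and 32631739 of chromosome 16.
Fth1: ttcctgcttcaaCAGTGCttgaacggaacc
Ftl1: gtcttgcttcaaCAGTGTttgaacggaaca
Slc40a1: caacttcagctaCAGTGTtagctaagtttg
Tfrc hairpin a: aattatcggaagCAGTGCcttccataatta
Tfrc hairpin b: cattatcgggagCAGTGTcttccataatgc
Tfrc hairpin c: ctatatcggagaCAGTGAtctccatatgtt
Tfrc hairpin d: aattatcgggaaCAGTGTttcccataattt
The same search matched 0.078% of 20434 genes in the 5′ UTR and 0.402% of 20643 in the 3′ UTR. RNA levels do not show the translation that the 5′ hairpins control. The Tfrc hairpins act on RNA stability, but RNA decay was not measured, so the Tfrc level does not single out their effect.

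The other genes lie apart from the hepcidin pair (GRCm38.p6). Trf is at chr9:103208876-103230286, Tfrc at chr16:32608896-32632794 and Tfr2 at chr5:137569822-137588081. Fth1 is at chr19:9980600-9985111, Ftl1 at chr7:45457944-45459886 and Slc40a1 at chr1:45908070-45926532. Hfe (chr13:23702034-23710854) and Bmp6 (chr13:38345716-38500314) share a chromosome. The targeted gene Cyp2e1 is also on chromosome 7, 109.8 Mb from Hamp and 95.3 Mb from Ftl1.

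The libraries summed to 562590 to 624264 FPKM, and the steps of low values put their depth at about 9520000 to 12460000 fragments. The targeted gene Cyp2e1 measured 254, 247 and 271 FPKM in the knockout and 7427, 5942 and 6071 in the wild type, as labelled, and fell (log2 change -4.64, SE 0.14; limma, adjusted p = 6.68e-08). Of the 9968 genes tested, 47 rose and 29 fell (limma, adjusted p under 0.05). Replicate 1 of both genotypes stood apart from the other libraries. Across 9968 genes, which are not independent replicates, the first knockout library had r = 0.9845 with the first wild type library, above its r of 0.9812 and 0.9787 with the other knockout libraries. Values without both of these libraries (2 libraries per genotype) are therefore given where they change the call of a named iron gene, beside a background of 11.9% of all genes called there. Hepatocyte markers were high in every library, with Alb at 24938 to 33779 FPKM. Their summed level was 44862 to 51178 FPKM in the knockout and 39599 to 47139 in the wild type. None of the 8 passed (limma; 4 at an unadjusted p under 0.05, against 9.93% of all tested genes). A positive fold change was seen in 6 (median 0.41), against 4401 of all 9968 tested genes. Without overlap, 3 were higher in the knockout, against 5.32% of all tested genes. Pck1, the gluconeogenic enzyme, had the highest of these log2 changes (1.39; limma, adjusted p = 0.108). The part of these markers in the values of the iron genes was not tested.

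None of the 10 iron handling genes passed the test over all genes (limma, Benjamini-Hochberg), where 0.762% of genes were called, 0.472% as rises and 0.291% as falls. At an unadjusted p under 0.05 there was 1 of 10, Hamp2, against 9.93% of all tested genes. Hamp2 was also the only one whose groups did not overlap, 1 of 10 against 15.4% of all genes (5.32% with the knockout higher). The median log2 fold change (knockout minus wild type, of FPKM + 1) of the 10 genes was -0.07, and that of all tested genes was -0.03. Without replicate 1 of both genotypes 3 of 10 passed, Hamp2 downward and Tfr2 and Ftl1 upward, when 11.9% of all genes were called.

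**Figure D2:**
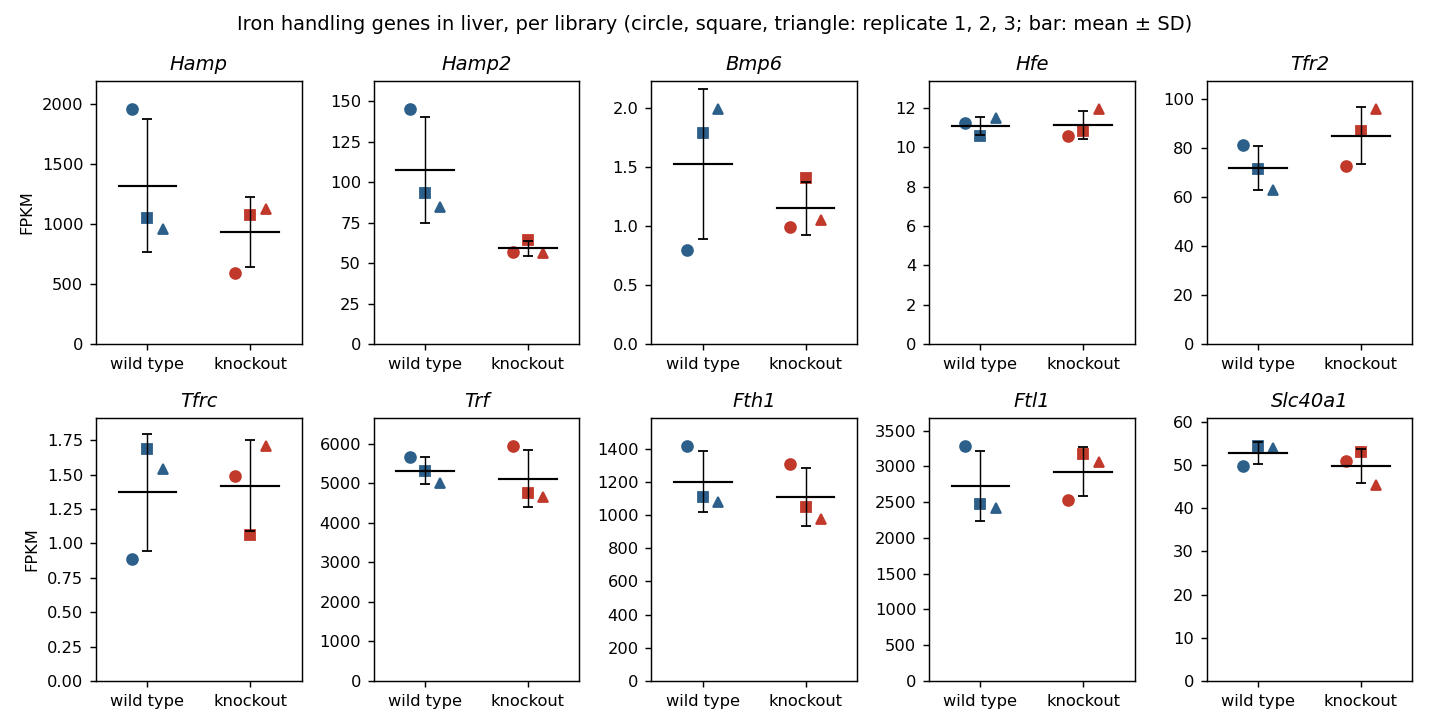
FPKM of each of the 10 genes in every library, wild type in blue and knockout in red, with circles, squares and triangles for replicates 1, 2 and 3 and black bars for mean ± SD. Only for Hamp2 do all knockout points (56.11 to 64.48) lie below all wild type points (84.56 to 145.13).

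Hamp2 encodes the second hepcidin of the mouse. It measured 57.08, 64.48 and 56.11 FPKM in knockout replicates 1 to 3 and at 145.13, 93.45 and 84.56 in the wild type. All knockout values lay below all wild type values, which was true of 10% of tested genes in this direction. The means were 59.2 ± 4.58 and 107.7 ± 32.7 FPKM (SD, n = 3 each), and the knockout mean was 0.55 of the wild type mean. The log2 change came to -0.81 (SE 0.19; limma, adjusted p = 0.112, unadjusted p = 0.00154), which did not pass. The exact two-sided permutation test gave p = 0.1, the smallest that 3 against 3 allows. Without replicate 1 of both genotypes the log2 change came to -0.56 (SE 0.09) and Hamp2 fell (limma, adjusted p = 0.00653). It also fell with sample quality weights (adjusted p = 0.0103, limma) and with libraries scaled to a common sum without the major urinary protein genes (adjusted p = 0.049, limma). The adjusted p lay between 0.00653 and 0.375 over 17 alternatives, all with a negative fold change. Those of filter, block and variance trend leave the fold change as it is and could not turn its sign.

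Hamp, the gene of the hepcidin that acts on ferroportin, was more variable. It measured 597, 1078 and 1124 FPKM in the knockout and at 1958, 1052 and 957 in the wild type. The groups overlapped, since the lowest value was knockout replicate 1, the highest was wild type replicate 1, and the other 4 libraries lay between 957 and 1124. The log2 change came to -0.48 (SE 0.30, 95% interval -1.15 to 0.19; limma, adjusted p = 0.667). Without replicate 1 of both genotypes the sign turned to 0.13 (SE 0.06; limma, adjusted p = 0.214), so the direction rested on those libraries. Hamp and Hamp2 share 33.68% of the 31-base words of Hamp, and reads from the shared stretches could have been assigned to either. The sum of both genes was 992 ± 293 FPKM in the knockout and 1430 ± 585 in the wild type (exact two-sided permutation test, p = 0.5).

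Hamp2 amounted to 9.56%, 5.98% and 4.99% of the Hamp level in the knockout libraries and to 7.41%, 8.89% and 8.83% in the wild type. In knockout replicates 2 and 3 this share was below every wild type library, and in knockout replicate 1 it was above all of them (exact two-sided permutation test, p = 0.4). The transcripts are short, at 410 bases for Hamp, where the length correction of FPKM is least certain. A ratio between libraries for the same gene does not depend on it if every library had the same correction, which the sources used here do not state.

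Acute phase proteins are made by hepatocytes under interleukin-6, the signal that also reaches Hamp, and 8 of 12 such markers were highest of all libraries in wild type replicate 1. Crp and Steap4 were instead lowest there, at 127.9 and 40.9 FPKM, and Orm3 and Saa3 were higher in another wild type library. Saa1 was 1403 FPKM in wild type replicate 1 against 163 and 179 in wild type replicates 2 and 3, and 238 to 289 in the knockout. Saa2 was 775 in that library and 34.3 to 70.4 in the other 5. The summed level of 12 acute phase markers was 8486 FPKM in wild type replicate 1, 4817 and 4990 in the other wild type libraries, and 4113 to 5290 in the knockout. Of the 12, 1 fell (Orm3), none rose and 11 had a negative fold change (median -0.57), against 5567 of all 9968 tested genes. An unadjusted p under 0.05 was reached by 4 of them (limma), against 9.93% of all genes. Without overlap, 3 were lower in the knockout, against 10% of all genes. Il6 itself was listed at 0 in 5 libraries and at 0.11 FPKM in wild type replicate 3. Without wild type replicate 1 the log2 change of Hamp was -0.16 (limma, adjusted p = 0.788) and that of Hamp2 was -0.58 (limma, adjusted p = 0.0592). The part of these markers in the hepcidin values was not tested.

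Bmp6, the endothelial ligand that drives Hamp in response to iron, was close to the filter. It measured 0.99, 1.41 and 1.05 FPKM in the knockout and at 0.80, 1.79 and 1.99 in the wild type, which at the estimated depths stands for about 26 to 68 fragments per library. The groups overlapped through wild type replicate 1, the lowest of all (log2 change -0.20, SE 0.21; limma, adjusted p = 0.832). Counting alone gives a spread of about 19.6% in the library with fewest fragments, and the wild type libraries varied by 41.7% (coefficient of variation). Without wild type replicate 1, the library that made the groups overlap, the log2 change came to -0.43 (limma, adjusted p = 0.284). This was the lowest of 16 alternatives, which reached up to -0.065. Leaving out replicate 1 of both genotypes gave -0.38 (limma, adjusted p = 0.188). Markers of sinusoidal endothelium, the cells that make Bmp6, had a negative fold change in 11 of 12 tested (median -0.34), with none past the threshold (limma; 2 at an unadjusted p under 0.05). Of all 9968 tested genes 5567 were negative. Without overlap, 3 of the 12 were lower in the knockout and 1 was higher, against 10% and 5.32% of all genes. The share of all genes at an unadjusted p under 0.05 was 9.93% (limma). Their summed level was 95.1 to 133.9 FPKM in the knockout and 107.8 to 134.9 in the wild type, and their part in the Bmp6 values was not tested.

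Hfe encodes the MHC class I-like protein that binds transferrin receptors at the hepatocyte surface and is needed for full hepcidin expression. Its levels were nearly constant, at 10.59, 10.85 and 11.94 FPKM in the knockout and 11.22, 10.60 and 11.48 in the wild type. The log2 change came to 0.0022 with a 95% interval of -0.28 to 0.28 (limma, adjusted p = 0.997). This was the narrowest range of the set in relation to its level, with a highest-to-lowest ratio of 1.13 over the 6 libraries.

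Tfr2, the second transferrin receptor, senses iron-loaded transferrin on hepatocytes and signals to hepcidin. It measured 72.44, 86.74 and 95.68 FPKM in the knockout and at 81.00, 71.43 and 62.92 in the wild type. Knockout replicates 2 and 3 were above all wild type libraries, and knockout replicate 1 lay among them. The log2 change came to 0.24 (SE 0.14, 95% interval -0.08 to 0.56; limma, adjusted p = 0.654). Without replicate 1 of both genotypes it was 0.44 (SE 0.09) and Tfr2 rose (limma, adjusted p = 0.0162), as it did with sample quality weights (limma, adjusted p = 0.041). Over its 17 alternatives the adjusted p ranged from 0.0162 to 0.988.

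Tfrc, the receptor through which most cells take up iron-loaded transferrin, was scarce in these livers. It measured 1.49, 1.06 and 1.71 FPKM in the knockout and at 0.89, 1.69 and 1.54 in the wild type, or about 40 to 89 fragments per library. The groups overlapped over most of their range (log2 change 0.04, SE 0.19; limma, adjusted p = 0.983), and the sign changed without replicate 1 of both genotypes (-0.15). Tfr2 was 40.9 to 91.0 times as abundant as Tfrc within a library. The mean of this ratio was 62.1 ± 17.4 in the knockout and 58.0 ± 28.6 in the wild type (exact two-sided permutation test, p = 0.6).

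Trf encodes transferrin, the iron carrier of plasma, and was the most abundant transcript of the set. It measured 5942, 4759 and 4648 FPKM in the knockout and at 5658, 5303 and 4995 in the wild type. Replicate 1 was the highest library of each genotype and the groups overlapped (log2 change -0.06, SE 0.15; limma, adjusted p = 0.953). Quantile normalization turned the sign to 0.17. The annotated model Gm20425 holds 60.58% of the 31-base words of Trf, so that reads of either could be assigned to the other.

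Ferritin, the iron store of the cell, is a shell of heavy chains, which oxidize iron, and light chains, which help to mineralize it. The heavy chain gene Fth1 measured 1305, 1048 and 974 FPKM in the knockout and 1417, 1110 and 1080 in the wild type, with overlapping groups (log2 change -0.12, SE 0.16; limma, adjusted p = 0.901). The light chain gene Ftl1 measured 2534, 3178 and 3061 in the knockout and 3286, 2474 and 2417 in the wild type. Ftl1 was low in replicate 1 of the knockout and high in replicate 1 of the wild type, opposite to the other pairs, and the log2 change over all libraries was 0.11 (SE 0.17; limma, adjusted p = 0.915). Without replicate 1 of both genotypes it was 0.35 (SE 0.05) and Ftl1 rose (limma, adjusted p = 0.00369), while Fth1 was at -0.12 there. The adjusted p of Ftl1 ranged from 0.00369 to 0.999 over 17 alternatives. Ftl1 is an uncertain gene for counting, since 57.74% of its 31-base words occur in other annotated genes, most of them in the pseudogene Ftl1-ps1. For Fth1 the share was 3.24%.

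The proportion of the chains was compared within each library. Ftl1 per Fth1 was 2.32, 2.23 and 2.24 in the wild type, a spread of 2.26 ± 0.05, and 1.94, 3.03 and 3.14 in the knockout. Knockout replicate 1 was below all wild type libraries and knockout replicates 2 and 3 above all of them, so that the means (2.71 ± 0.66 in the knockout) did not separate the genotypes (exact two-sided permutation test, p = 0.4). Summed ferritin RNA was 4034 ± 194 FPKM in the knockout and 3928 ± 672 in the wild type (exact two-sided permutation test, p = 0.8).

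**Figure D3:**
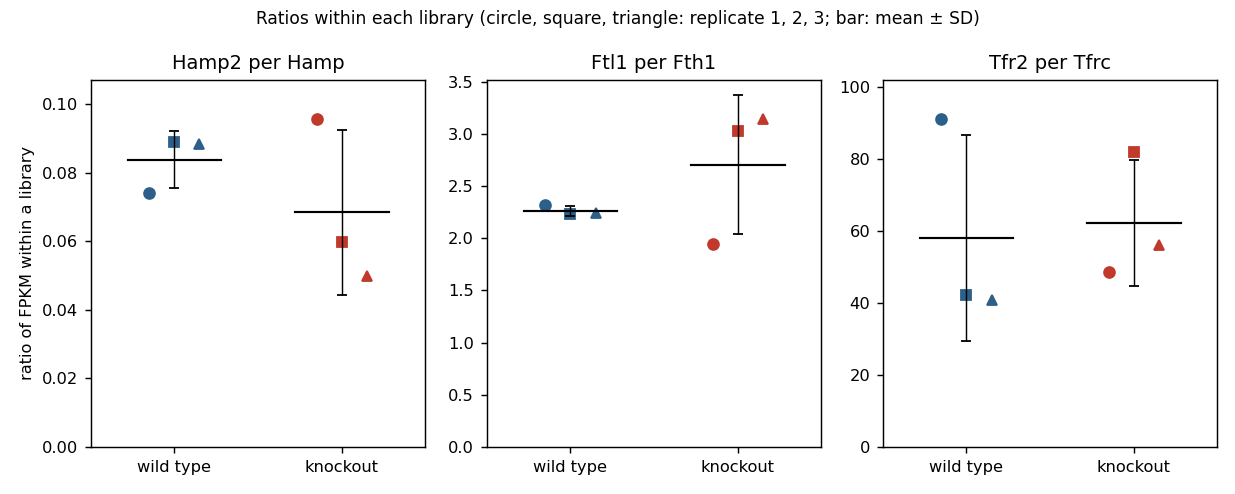
Ratios of FPKM within each library for Hamp2 to Hamp, Ftl1 to Fth1 and Tfr2 to Tfrc, wild type in blue and knockout in red, with circles, squares and triangles for replicates 1 to 3 and black bars for mean ± SD. The wild type Ftl1 per Fth1 values lie within 2.23 to 2.32, and the knockout values at 1.94, 3.03 and 3.14 fall on both sides of them.

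Slc40a1 encodes ferroportin, the exporter that hepcidin removes, which in liver is found on macrophages as well as hepatocytes. It measured 50.87, 53.15 and 45.44 FPKM in the knockout and 49.80, 54.47 and 53.94 in the wild type, with overlapping groups (log2 change -0.08, SE 0.12, 95% interval -0.34 to 0.18; limma, adjusted p = 0.904). Of 13 Kupffer cell and macrophage markers 1 fell, the lysozyme gene Lyz2, none rose and 12 had a negative fold change (median -0.40). Of all 9968 tested genes 5567 were negative. An unadjusted p under 0.05 was reached by 5 of the 13 (limma), against 9.93% of all genes. In the knockout 4 were lower without overlap, against 10% of all genes. Their summed level was 150 to 254 FPKM in the knockout and 253 to 277 in the wild type. The part of these cells in the Slc40a1 value was not tested.

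**Figure D4:**
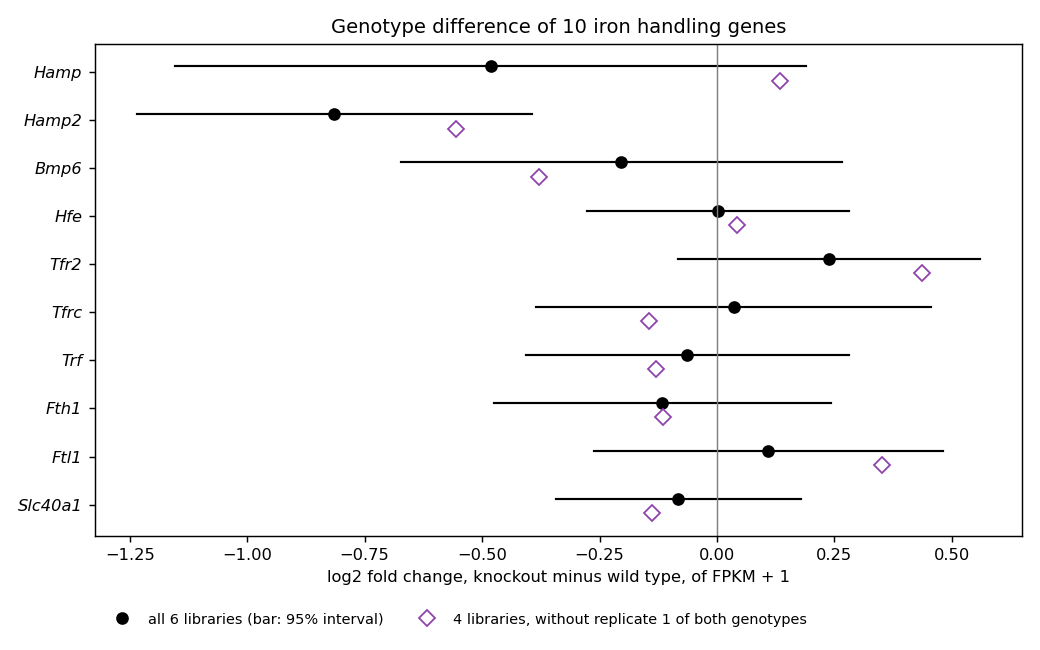
Log2 fold change, knockout minus wild type, of FPKM + 1 for the 10 genes over all 6 libraries (black points with 95% intervals, not adjusted for the number of genes) and without replicate 1 of both genotypes (purple diamonds). The interval of Hamp2 (-1.23 to -0.39) lies below 0 with all libraries, and Hamp moves from -0.48 to 0.13.

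The levels of the set spanned from Trf to Bmp6. By mean FPKM the order was Trf, Ftl1, Fth1, Hamp, Hamp2, Tfr2, Slc40a1, Hfe, Tfrc and Bmp6. Neighbours in this order were in the same order in 6 of 6 libraries except for 3 pairs. Fth1 and Hamp, Hamp2 and Tfr2, and Tfrc and Bmp6 each kept the order in 3 of 6 libraries, so that they did not differ beyond their spread. Ftl1 exceeded Fth1 by 1.94 to 3.14 times, and Hamp exceeded Hamp2 by 10.5 to 20 times within a library. Together the 10 genes made up 1.70% to 2.02% of all FPKM in a library.

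Likeness to Hamp over the 6 libraries was described with Pearson's r of log2(FPKM + 1). The highest values were those of Vps72 (0.993), Gemin7 (0.991), Praf2 (0.991) and Mettl10 (0.989). All 4 were lowest in knockout replicate 1 and highest in wild type replicate 1, as Hamp was. Hamp2 had r = 0.76 and ranked 569 of 9967 genes, and Ftl1 had r = 0.68. With 6 libraries and 9967 genes, and with shared library depth, high values are common and are given as a description.

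Beyond these genes, 7 wider lists of iron genes were read from the same test. Of 111 genes listed, 107 were in the table and 93 were tested, and 1 rose and 1 fell, against 0.762% called among all genes. Alas2 fell in the knockout and Scara5 rose. The median log2 fold change was -0.0015. Of the 93, 12 reached an unadjusted p under 0.05 (limma), against 9.93% of all tested genes. The groups did not overlap for 12, against 15.4%.

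Alas2 starts heme synthesis in red cell precursors and carries an iron responsive element. It measured 10.35, 9.28 and 8.65 FPKM in the knockout and 44.06, 49.50 and 50.01 in the wild type, without overlap (log2 change -2.23, SE 0.13; limma, adjusted p = 2.02e-05). No other tested erythroid marker passed. The haemoglobin gene Hbb-b1 had a mean of 246.6 FPKM in the knockout and 238.6 in the wild type, and Hba-a1 had 171.4 and 176.0. Slc4a1 and Epb42, which encode red cell membrane proteins, were at or under 0.05 FPKM in every library. Among 15 erythroid markers found, 6 were tested. Of these Alas2, which is on both lists, fell and none rose, with a summed level of 409 to 709 FPKM in the knockout and 406 to 971 in the wild type. Of the 7 tested genes on the list of other iron responsive element transcripts, only Alas2 passed over all libraries. Without replicate 1 of both genotypes 3 of the 7 passed, Alas2 among them, when 11.9% of all genes were called.

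Scara5, a scavenger receptor that can take up ferritin, measured 15.17, 22.69 and 24.82 FPKM in the knockout and 9.61, 10.53 and 10.41 in the wild type. The groups did not overlap, and Scara5 rose (log2 change 0.94, SE 0.18; limma, adjusted p = 0.048). The call was also lost with a pseudocount of 0.1 or 0.5, without the filter, with a filter of 5 FPKM and without the variance trend, where the adjusted p from limma was 0.051 to 0.157. It was lost with the replicate number as a block (limma, adjusted p = 0.0547), and without any single library other than knockout replicate 1 (limma, adjusted p = 0.0871 to 0.26). Without replicate 1 of both genotypes it was 1.11 (limma, adjusted p = 0.000313). Of 18 tested genes for uptake of free iron, heme and haemoglobin and for iron reduction, 17 did not pass. An unadjusted p under 0.05 was reached by 4 of the 18 (limma), against 9.93% of all genes. Without replicate 1 of both genotypes 6 of the 18 passed, 3 upward and 3 downward, when 11.9% of all genes were called. Among them the reductase Steap4 fell (log2 change -0.81, limma, adjusted p = 0.000308), against an adjusted p of 0.437 over all libraries (limma). Its adjusted p ranged from 0.000308 to 0.905 over all alternatives.

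In the BMP and SMAD arm of hepcidin control none of 20 tested genes passed (limma; 3 at an unadjusted p under 0.05), 11 fold changes were positive and the median was 0.06. The most abundant were Fgl1, a hepatokine that binds BMPs (179 ± 113 FPKM in the knockout, 145 ± 92.7 in the wild type), and Tmprss6, the protease that dampens hepcidin signalling (112 ± 22.5 and 111 ± 6.46). Fgl1 was high in replicate 1 of both genotypes, at 309.9 and 252.5 FPKM against 90.9 to 116.7 elsewhere. The groups did not overlap for 4 of the 20, 2 with the knockout higher and 2 with it lower, against 15.4% of all tested genes. They were Id1 and Smad7 (higher) and Gdf15 and Bmp2 (lower), with limma adjusted p = 0.553 for Smad7 and 0.512 for Bmp2. Genes with larger differences, named after their values were seen, were Gdf15 and Id1. Gdf15, a stress-induced secreted factor, measured 1.75, 1.60 and 1.73 FPKM in the knockout and 2.94, 6.12 and 5.61 in the wild type, without overlap (log2 change -1.08, SE 0.22; limma, adjusted p = 0.0673). The SMAD target Id1 was 2.65, 4.55 and 4.22 FPKM in the knockout and 1.29, 2.41 and 2.0 in the wild type, also without overlap (limma, adjusted p = 0.231). Of the 20 genes 4 passed without replicate 1 of both genotypes, when 11.9% of all genes were called. There Gdf15 fell (log2 change -1.36; limma, adjusted p = 0.000728), as it did without wild type replicate 1 alone (limma, adjusted p = 0.00509). Id1 (0.75; limma, adjusted p = 0.016), Fgl1 (0.31; limma, adjusted p = 0.0239) and Id3 rose. Over all alternatives the adjusted p ranged from 0.000275 to 0.284 for Gdf15, from 0.00893 to 0.712 for Id1 and from 0.0239 to 0.999 for Fgl1.

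In the IL-6 and STAT3 arm none of 10 passed (limma; 1 at an unadjusted p under 0.05), with a median of 0.25. Its most abundant members were the liver transcription factors Creb3l3 (150 ± 8.47 and 157 ± 9.92 FPKM (knockout, then wild type)) and Cebpb (153 ± 46.0 and 112 ± 21.6). Among ferroxidases, which load iron onto transferrin, only ceruloplasmin was tested, and Cp measured 247 ± 35.5 FPKM in the knockout and 325 ± 45.9 in the wild type (log2 change -0.40, SE 0.15; limma, adjusted p = 0.399). In the fit without replicate 1 of both genotypes, Cp fell (log2 change -0.62; limma, adjusted p = 0.000795), when 11.9% of all genes were called. In the IL-6 and STAT3 arm 2 of the 10 passed there, and both Cebpb (0.82; limma, adjusted p = 0.00196) and Cebpa rose. The adjusted p ranged from 0.000795 to 0.887 for Cp and from 0.00196 to 0.978 for Cebpb over all alternatives.

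None of 10 iron regulatory proteins, iron chaperones and ferritinophagy genes passed (limma; 1 at an unadjusted p under 0.05; median 0.01). Pcbp1 and Pcbp2, chaperones that deliver iron to ferritin, measured 66.7 ± 7.63 and 53.6 ± 2.30 FPKM in the knockout and 64.0 ± 8.21 and 53.4 ± 5.0 in the wild type. Of 28 genes of mitochondrial iron and iron-sulfur cluster assembly none passed (limma; 1 at an unadjusted p under 0.05), and the median was -0.035. The chaperone Hspa9 measured 169 ± 12.3 and 177 ± 13.7 FPKM (knockout, then wild type), and the outer membrane iron-sulfur protein Cisd1 at 160 ± 18.1 and 136 ± 12.5. Of these 28 genes 3 rose without replicate 1 of both genotypes, when 11.9% of all genes were called, and none of the 10 regulatory proteins and chaperones passed. Cisd1 was among the 3 (log2 change 0.38; limma, adjusted p = 0.0142, with a range of 0.0142 to 0.984 over all alternatives).

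**Figure D5:**
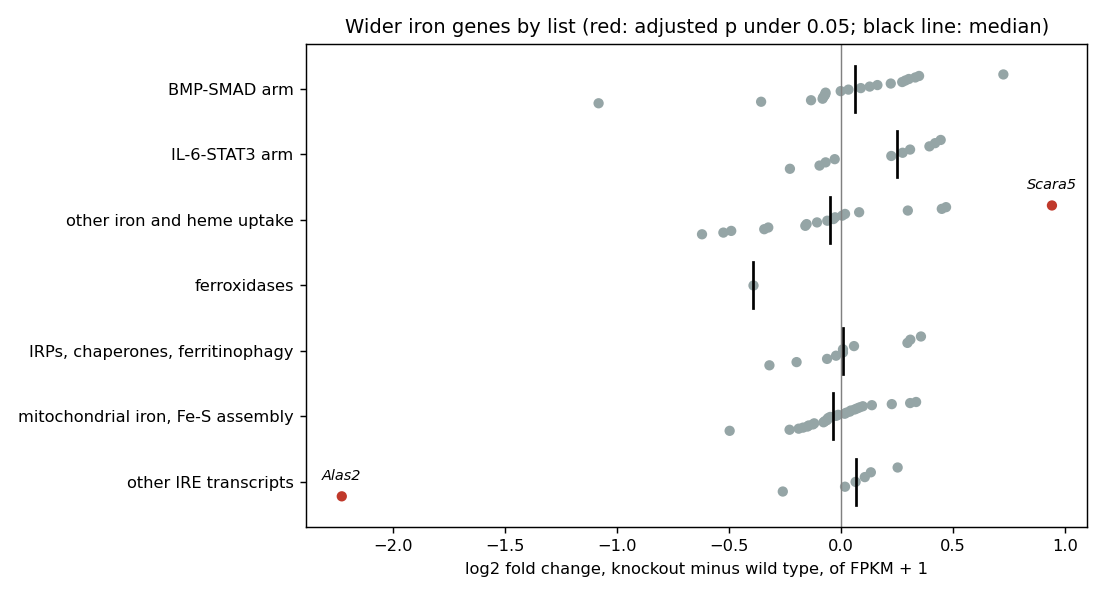
Log2 fold change, knockout minus wild type, of FPKM + 1 for the tested genes of 7 wider iron lists, 1 point per gene, red where the adjusted p was under 0.05, with black lines at list medians. Alas2 (-2.23) and Scara5 (0.94) are the red points.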

How the data were processed

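Liver RNA was sequenced from 3 knockout and 3 wild type libraries, grouped by the genotype label. The deposited values are FPKM per the file headers, to 2 decimals. HISAT and mm10 are named in the submitters' processing notes. As to the quantifier, its annotation and the strand setting, these were not given in the sources used here. FPKM carry no counts, so limma 3.58.1 (lmFit, eBayes with trend, R 4.3.3) was run on log2(FPKM + 1), which understates changes of low genes, with Benjamini-Hochberg adjustment over 9968 genes and a threshold of 0.05. It was tested on simulated data. Exact permutation tests used scipy 1.17.1.

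The 10 genes and the lists were chosen with earlier results of these data known. Named genes are the members, Cyp2e1, and from each wider list up to 3 called genes with the smallest adjusted p or, with none, the 2 most abundant. For Hamp, they are also the 4 genes with the highest correlation. Gdf15, Id1, Bmp2, Smad7 and the single marker genes named were chosen after their values were seen.

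Depth was estimated from the steps of low values: 70.0% to 74.9% of 198 to 237 values per library fell 0.15 or less from a whole step (30.0% expected by chance), with depth and an offset of transcript length fitted to the same values. Replicate numbers come from the titles. Same-numbered libraries deviated together (r = 0.30, 0.20 and 0.16 across genes), although knockout replicate 3 deviated more with wild type replicate 2 (r = 0.21) than with its own number. The main fit and the permutation tests did not pair libraries. Replicate number entered only as a block, in an alternative fit. Nothing states that libraries came from separate mice, and p-values measure the spread between libraries. Positions and promoters are from RefSeq (GRCm38.p6), and transcripts from GENCODE M21. Alternatives covered pseudocount, filter, scaling, block, variance model, weights and libraries left out.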

Additional observations from a re-analysis of the deposited data

How the results depend on the processing

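The count of called iron handling genes, 0 of 10 over all libraries, was 1 with a common sum without the major urinary protein genes, 2 with sample quality weights and 3 without replicate 1 of both genotypes. It was 0 under every other alternative run, the replicate block included. The count over the wider lists (2) was 1 with a pseudocount of 0.1 or 0.5, no filter, a filter of 5 FPKM, the replicate block or limma without trend, 15 with sample quality weights and 19 without replicate 1 of both genotypes. Leaving out 1 library gave 1 to 3. For all genes (76) it was 32 with no filter, 36 with the filter of 5 FPKM, 1151 with sample quality weights, 1183 without replicate 1 of both genotypes, and 29 to 211 with 1 library left out (211 and 117 without the first knockout or wild type library, 29 to 37 without any other). With the replicate block it was 72, and among the 10 genes and the wider lists the block changed no other call than that of Scara5. The share of rises among called genes was 61.8% over all libraries, 78.1% with no filter and 51.9% with sample quality weights.

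Of 170 values over the 10 genes and their alternatives, 154 kept direction and side of the threshold, 6 passed where the main value had not, and 10 turned sign, none of them called. The alternatives of filter, block and variance trend leave the fold change as it is, so they could not turn the sign. The same holds for the permutation test of Hamp, which repeats its main log2 change. Hamp turned to 0.13 without replicate 1 of both genotypes. Tfrc turned to -0.19 with sample quality weights and to -0.15 without replicate 1 of both genotypes, and Trf to 0.17 with quantile normalization. With 1 library left out, Tfrc ranged from -0.12 to 0.15, Trf from -0.18 to 0.0018, Fth1 from -0.24 to 0.0076 and Hfe from -0.045 to 0.034. The cause was not tested. Leaving out libraries also lowers the number of samples behind each value. With the filter of 5 FPKM, Tfrc and Bmp6 had no value. Their depth of 26 to 89 estimated fragments limits what can be seen, and intervals of counting error do not cover differences between mice.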
